A study of Mus musculus with 4 samples.

Results

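The Lce3 genes are a compact group of late cornified envelope genes, and the group examined here was the 6 rows of a mouse skin count table named Lce3a, Lce3b, Lce3c, Lce3d, Lce3e and Lce3f, of 56953 genes in all. They were taken by symbol, in a choice made with the contrast between NEDD8i and DMSO already known to include high Lce3c, Lce3d and Lce3f, so the values of the 6 genes in that contrast are given as a description and not as a test. RNA came from dorsal skin of wild type C57BL/6J mice treated on the skin surface for 3 days. NEDD8i, a code under which the labels give no chemical name, was used at 10 µM in 2 libraries, and the other 2 received the solvent DMSO alone. Where values are given in pairs, replicate 1 comes before replicate 2. The label refers to NEDD8, a ubiquitin-like protein that is joined to other proteins, among them the cullin scaffolds of ubiquitin ligases. Libraries were made with QuantSeq, which reads the 3′ end of polyadenylated transcripts. Age and sex of the mice, and whether replicates came from separate animals, are not given in the sources used here, so p-values measure only the spread between these libraries, which may be technical.

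Late cornified envelope proteins are small and are cross-linked by transglutaminases beneath the membrane of a keratinocyte as it becomes a dead, flattened cell of the skin surface. Their genes lie together in the epidermal differentiation complex, beside those of loricrin, involucrin, filaggrin and the small proline-rich (Sprr) proteins. In healthy skin the LCE1 and LCE2 groups are the ones mainly expressed in human epidermis, whereas LCE3 genes are known for low expression there and for induction in psoriatic plaques and after injury of the barrier. LCE3 proteins have also been described as antibacterial.

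All 6 genes lay within 68.1 kb of chromosome 3, between 92832594 and 92900733 in the deposited coordinates, which are taken to be GRCm39. Lce3a was on the minus strand at 92832594 to 92833537, and the others on the plus strand in alphabetical order. Lce3b lay at 92840286 to 92841404, Lce3c at 92851793 to 92853040, Lce3d at 92864697 to 92865812, Lce3e at 92874368 to 92875588 and Lce3f at 92899533 to 92900733. Each gene had 2 exons in the table and a summed exon length between 491 and 611 bases.

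The 150 bases before the RefSeq start of each gene are printed to show how alike the members are upstream. They are from the RefSeq table on GRCm38.p6, in which all 6 genes were matched by symbol. Capitals mark runs of at least 8 bases that Lce3c, Lce3d, Lce3e and Lce3f all carried, and the search was made in those 4 genes after their counts were seen. The windows are chr3:92926231-92926380 on the minus strand for Lce3a and, on the plus strand, chr3:92932829-92932978 for Lce3b, chr3:92944336-92944485 for Lce3c, chr3:92957240-92957389 for Lce3d, chr3:92966911-92967060 for Lce3e and chr3:92992067-92992216 for Lce3f.
Lce3a: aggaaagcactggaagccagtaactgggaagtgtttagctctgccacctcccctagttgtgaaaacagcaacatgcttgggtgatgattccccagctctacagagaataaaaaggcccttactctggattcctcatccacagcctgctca
Lce3b: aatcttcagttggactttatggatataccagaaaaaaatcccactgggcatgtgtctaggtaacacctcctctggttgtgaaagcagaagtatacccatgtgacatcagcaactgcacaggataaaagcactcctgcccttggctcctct
Lce3c: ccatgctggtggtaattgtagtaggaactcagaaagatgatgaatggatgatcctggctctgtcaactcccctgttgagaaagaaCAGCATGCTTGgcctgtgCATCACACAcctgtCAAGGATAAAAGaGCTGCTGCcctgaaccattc
Lce3d: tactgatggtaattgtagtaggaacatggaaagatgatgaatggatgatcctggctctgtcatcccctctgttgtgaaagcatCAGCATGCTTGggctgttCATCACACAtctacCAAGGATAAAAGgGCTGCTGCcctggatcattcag
Lce3e: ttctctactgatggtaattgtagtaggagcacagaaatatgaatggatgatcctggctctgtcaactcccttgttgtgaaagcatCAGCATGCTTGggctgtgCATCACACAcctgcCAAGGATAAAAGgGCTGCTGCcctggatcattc
Lce3f: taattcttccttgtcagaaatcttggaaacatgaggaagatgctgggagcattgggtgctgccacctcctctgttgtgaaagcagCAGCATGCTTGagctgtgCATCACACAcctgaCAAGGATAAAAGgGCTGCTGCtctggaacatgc

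Lce3c, Lce3d, Lce3e and Lce3f carried 4 such runs in the same order, 40 bases in all. Because the runs were defined on these 4 genes, their absence as whole runs from Lce3a and Lce3b is partly built into the search. Lce3b carried AGGATAAAAG, 10 of the 12 bases of the first run named below, and Lce3a carried CATGCTTG, 8 of the 11 bases of the second. The run CAAGGATAAAAG began 33 bases before the start in Lce3c, Lce3e and Lce3f and 35 in Lce3d, and 5 of 32544 RefSeq windows of the same length held it. The run CAGCATGCTTG, which began 65 bases before the start in Lce3c, Lce3e and Lce3f and 67 in Lce3d, was held by 4 of the 32544 windows, those of these 4 genes. CATCACACA was held by 35 windows and GCTGCTGC by 325. None of the 4 whole runs was in any of the 14 other Lce genes that the table held.

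Over the same windows the upstream sequences of Lce3c, Lce3d and Lce3e were 84.3% to 87.8% identical, and that of Lce3f was 71.9% to 74.2% identical to theirs. Lce3a and Lce3b shared at most 65.0% with any other member. The transcripts were ordered differently, since that of Lce3b was 91.8% identical to that of Lce3c, the highest of the 15 pairs, and lower to the others. All 6 windows held the letters ATAAAA on the gene strand, a TATA-like motif found in 5.99% of all windows, which in Lce3c to Lce3f lies inside the first run named above. No window held the letters TGANTCA (AP-1), AACNNGTT (Grainyhead-like), TTCNNNGAA (STAT), TTGCNNAA (C/EBP), CCACCC (KLF) or GGGANTTCC (kappa B) on either strand, and these were found in 0.959% to 19.8% of all windows. These are matches of letters over 150 bases and say nothing of binding.

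**Figure D1:**
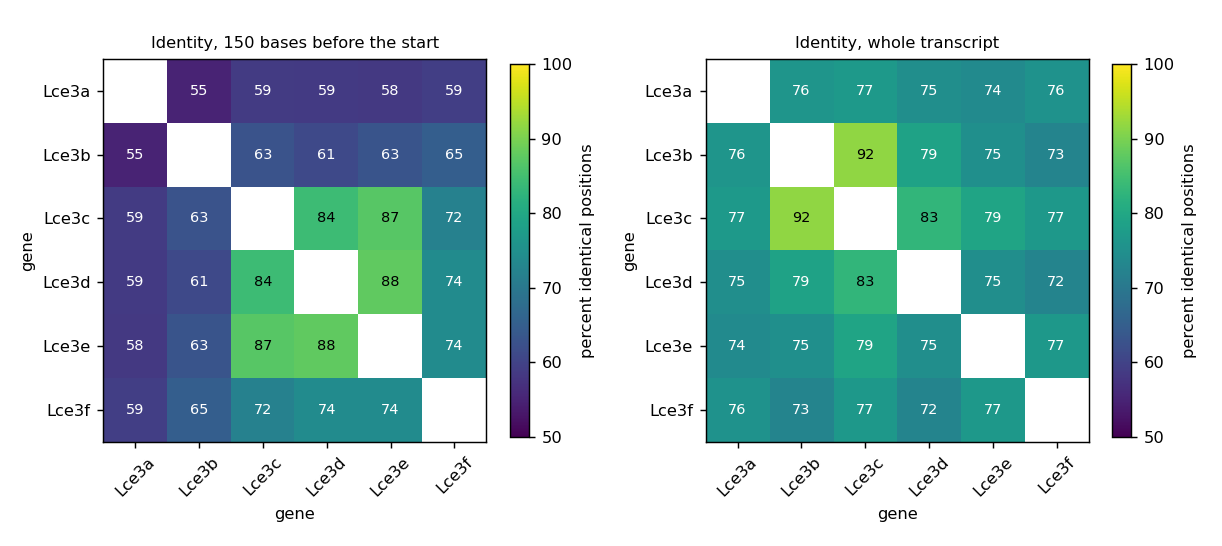
Percent of identical positions between each pair of Lce3 genes, over the 150 bases before the start (left) and over whole transcripts (right), after global alignment. Lce3c, Lce3d and Lce3e form a block above 84% on the left, while on the right the highest value, 91.8%, joins Lce3b and Lce3c.

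Total counts were between 5639791 and 8856572 per library, of which 52.6% to 61.7% fell on 3 ribosomal RNA genes. Suprabasal keratinocyte markers, among them Krt1 and Krt10, were plentiful, at 1.88% and 3.00% of reads outside ribosomal RNA with DMSO and 1.34% and 1.21% with NEDD8i. The label of full-thickness skin was met thinly for deeper layers: the 6 endothelial markers had between 2 and 18 reads per library, with Cdh5 at 0 in all, and 7 fibroblast markers between 39 and 607. Skeletal muscle and sebocytes were seen in every library, with 7 muscle markers at 169 to 295 reads and 5 sebocyte markers at 744 to 1729. DMSO replicate 1 stood apart in hair, with 11 hair shaft and inner root sheath markers at 1.60% of reads outside ribosomal RNA against 0.00459%, 0.00353% and 0.105% in DMSO replicate 2 and the NEDD8i pair. It also stood apart in 6 melanocyte markers, at 0.0892% against 0.0139%, 0.0132% and 0.0151%, and in 5 adipocyte markers, at 0.0177% against 0.000175%, 0.00153% and 0.000858%. The list of 8 macrophage and Langerhans cell markers took 0.0381% and 0.0257% with DMSO and 0.0514% and 0.0496% with NEDD8i. The part of these differences in the Lce3 values was not tested. In bulk tissue fewer cells of a type and less RNA per cell cannot be told apart.

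The 6 Lce3 genes had few reads in DMSO skin and many after NEDD8i. Summed over the group, they had 19 and 28 reads with DMSO and 427 and 557 with NEDD8i. On the scale of reads scaled to library size (CPM, scaled with TMM factors) the summed level was 3.88 ± 1.66 with DMSO and 59.8 ± 9.79 with NEDD8i (mean ± SD, n = 2 libraries each), a ratio of 15.4. Fitted as 1 row in edgeR it had a log2 fold change of 3.96, which ran from 3.55 without DMSO replicate 1 to 4.48 without DMSO replicate 2. As a share of reads outside ribosomal RNA the group made up 0.000673% (exact 95% binomial interval 0.000405 to 0.00105) and 0.00122% (0.000813 to 0.00177) in DMSO, and 0.0117% (0.0106 to 0.0128) and 0.0165% (0.0151 to 0.0179) after NEDD8i. These intervals cover counting error only.

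Lce3c, the member with most reads, had 8 and 13 reads with DMSO and 195 and 184 with NEDD8i. The groups were far apart and the NEDD8i libraries nearly equal, with levels of 1.74 ± 0.853 and 23.1 ± 1.49 CPM for DMSO and NEDD8i (mean ± SD, n = 2 each). The log2 fold change was 3.74 (SE 0.45). Lce3d had 5 and 0 reads with DMSO and 97 and 104 with NEDD8i, or 0.356 ± 0.504 CPM against 12.2 ± 0.316 CPM. Its log2 fold change of 4.91 (SE 0.76) rested on 5 reads in the DMSO group, all from replicate 1, and the ratio of pooled counts was 30.7 with a 95% counting interval of 13.0 to 95.7. Without DMSO replicate 1 the fitted value was 9.48, against a DMSO library with no read, so its size is not fixed by these data.

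Lce3e had 0 and 5 reads with DMSO and 52 and 57 with NEDD8i, the reverse of Lce3d as to which DMSO library held its reads. Its level was 0.451 ± 0.638 CPM with DMSO and 6.63 ± 0.275 CPM with NEDD8i (mean ± SD, n = 2 each), with a log2 fold change of 3.95 (SE 0.92) and a pooled ratio of 16.7 (95% counting interval 6.93 to 52.3). Without DMSO replicate 2, whose 5 reads were all the DMSO group had, the fitted value was 8.71. Lce3f had 6 and 10 reads with DMSO and 77 and 203 with NEDD8i, so that all 4 libraries kept to their group but the NEDD8i libraries were far from equal. It stood at 1.33 ± 0.672 CPM with DMSO and 16.9 ± 10.4 CPM with NEDD8i, with a log2 fold change of 3.69 (SE 0.62). That value was 2.83 without NEDD8i replicate 2 and 4.21 without NEDD8i replicate 1.

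Lce3a and Lce3b were barely detected. Neither had a read in the DMSO libraries, while with NEDD8i Lce3a had 3 and 2 reads and Lce3b had 3 and 7. Against a floor of 3 counts set over both DMSO libraries (0.239 CPM), the NEDD8i level was 1.27 times the floor for Lce3a and 2.55 times for Lce3b. These values leave out the counting error of so few NEDD8i reads, so they are not strict lower bounds. Neither passed the filter on low counts, so 4 of the 6 members were tested, and those 4 passed it only through their NEDD8i counts.

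**Figure D2:**
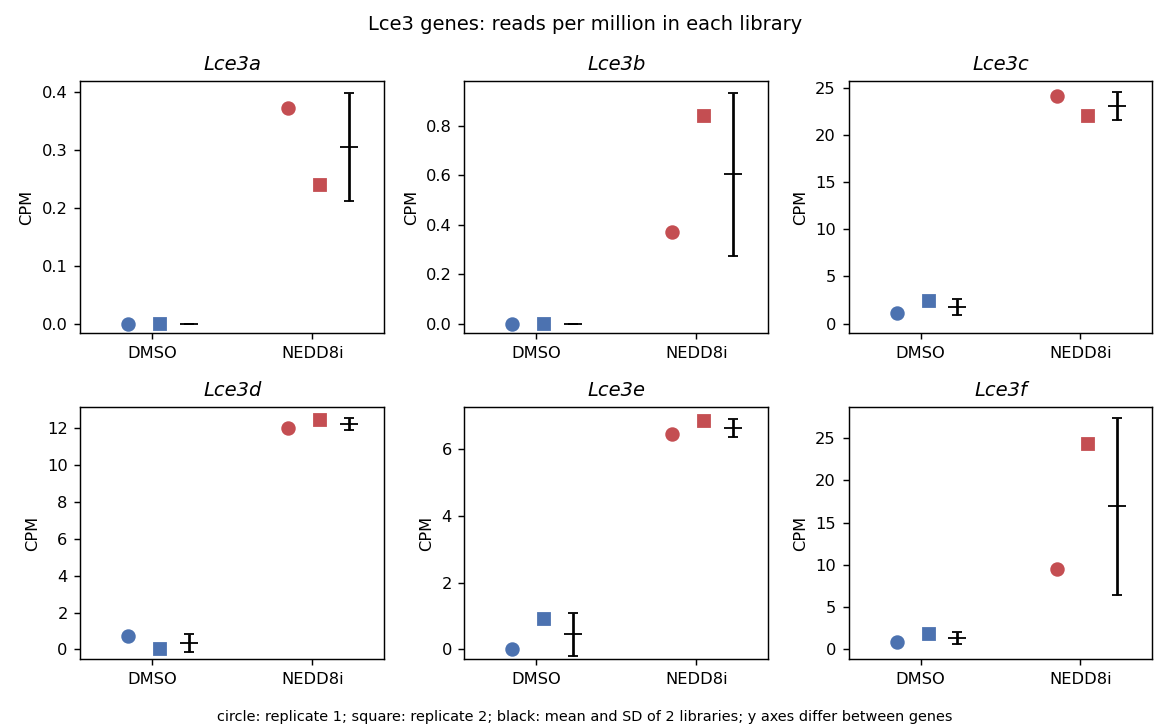
CPM of each Lce3 gene in each library, with DMSO in blue and NEDD8i in red, and black marks for the mean and SD of 2 libraries. In every panel both NEDD8i libraries lie above both DMSO libraries, and Lce3f is the gene whose NEDD8i libraries lie farthest apart, at 9.53 and 24.3 CPM.

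Of the 4 tested members, Lce3c, Lce3d and Lce3f were past a Benjamini-Hochberg adjusted p of 0.05 in the quasi-likelihood test of edgeR and Lce3e was not. Over all 11388 tested genes 0.667% were called higher and 0.114% lower, 0.782% in all. On the same genes DESeq2 called 237 higher and 177 lower, and limma-voom 55 higher and 9 lower. At an unadjusted p under 0.05 in edgeR's test, 982 were higher and 896 lower. Counts for gene lists given below from these tests are to be set beside these. Since the members were chosen on this contrast, nothing is read from their count. Lce3d did not pass without NEDD8i replicate 1, and neither Lce3d nor Lce3f passed without NEDD8i replicate 2. In such fits the group with a single library adds no spread of its own. Both NEDD8i libraries lay above both DMSO libraries for all 6 members, and for 25% of all tested genes.

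Per kilobase of exon the mean NEDD8i level was 40.7 CPM for Lce3c, 27.7 for Lce3f, 24.9 for Lce3d, 10.9 for Lce3e, 1.08 for Lce3b and 0.556 for Lce3a. Lce3f, at 15.6 and 39.8 CPM per kilobase in the NEDD8i libraries, could not be placed apart from Lce3d (24.4 and 25.4) or Lce3c (42.6 and 38.8). Lce3b (0.660 and 1.49) and Lce3a (0.676 and 0.436) were likewise not separated by their libraries. Lce3e lay below Lce3d in both libraries. A 3′ tag library yields reads from the transcript end whatever its length, and the order by CPM without the division by length was the same.

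The make-up of the Lce3 reads differed between the NEDD8i libraries. Lce3f held 18.0% of the Lce3 reads in NEDD8i replicate 1 (exact 95% binomial interval 14.5 to 22.0) and 36.4% in NEDD8i replicate 2 (32.4 to 40.6). Its CPM in replicate 2 was 2.55 times that in replicate 1, where the same ratio was 0.913 for Lce3c, 1.04 for Lce3d and 1.06 for Lce3e. The share of Lce3c was 45.7% (40.9 to 50.5) in NEDD8i replicate 1 and 33.0% (29.1 to 37.1) in NEDD8i replicate 2. In DMSO Lce3c held 42.1% (20.3 to 66.5) and 46.4% (27.5 to 66.1) of the Lce3 reads, intervals that take in both of its NEDD8i shares. The copies are close enough for some reads to fit several members. In the last 300 bases, where 3′ tags fall, Lce3c and Lce3d shared a run of 103 identical bases, and the other pairs shared between 17 and 62. No member shared more than 23 bases there with another Lce gene. The sources used here do not state how such reads were counted.

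The balance between the Lce3 group and the other late cornified envelope genes differed between the groups. The 15 other Lce genes, 14 of the Lce1 group that is expressed in normal cornifying epidermis and Lce6a, had 2357 and 491 summed reads with DMSO and 316 and 390 with NEDD8i. Lce3 reads were 0.800% (exact 95% binomial interval 0.482 to 1.25) and 5.39% (3.61 to 7.70) of all Lce reads in DMSO, and 57.5% (53.8 to 61.1) and 58.8% (55.6 to 62.0) after NEDD8i. This share is the same under any scaling of the libraries, and in each NEDD8i library the Lce3 reads were more numerous than those of all other Lce genes together.

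**Figure D3:**
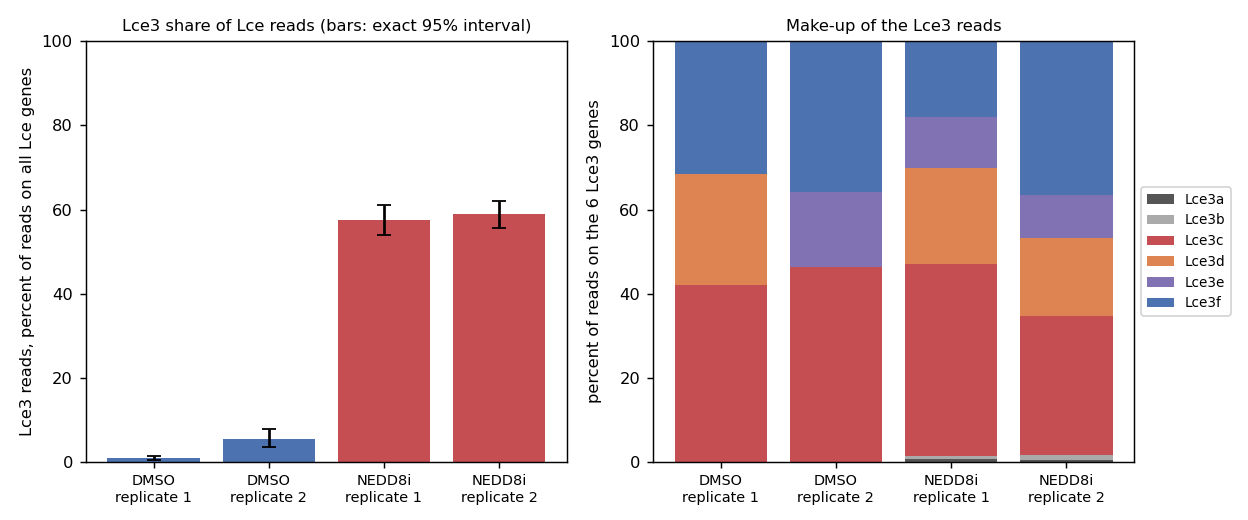
Left, Lce3 reads as a percent of the reads on all Lce genes in each library, with exact 95% binomial intervals. Right, the percent of Lce3 reads on each member. On the left the NEDD8i libraries reach 57.5% and 58.8% and the DMSO libraries 0.800% and 5.39%. On the right the Lce3f part is 18.0% in NEDD8i replicate 1 and 36.4% in replicate 2.

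The lower values of the other Lce genes were not secured gene by gene. Of 13 tested, 0 passed in either direction in edgeR's test, while 7 were lower at an unadjusted p under 0.05, 5 were called lower by DESeq2 and 0 by limma-voom. All 13 had a negative log2 fold change, and the median was -2.31, against -0.00 over all tested genes. Lce1m and Lce1a1 were the most abundant of them. Lce1m had 600 and 47 reads with DMSO and 11 and 25 with NEDD8i, with a log2 fold change of -4.42 (edgeR adjusted p = 0.340, SE 1.54). Lce1a1 had 411 and 78 reads with DMSO and 60 and 76 with NEDD8i, with a log2 fold change of -2.14 (edgeR adjusted p = 0.160, SE 0.62). DMSO replicate 1, the library rich in hair RNA, held most of these reads. Without it 12 of 12 tested were still negative, with a median of -1.06. Leaving out DMSO replicate 2 instead gave a median of -3.02. With every library kept, edgeR with no filter called 8 of 15 lower, against 318 of 23633 over all genes. With the replicate number as a block it called 1 of 13 lower, against 107 of 11388. The part of hair RNA in these values was not tested. The Lce3 group had 19 reads in DMSO replicate 1 and 28 in DMSO replicate 2, with overlapping counting intervals for their shares. The part of hair RNA in the Lce3 values was not tested either.

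None of the genes around the Lce3 group was called higher. Within 200 kb of its ends the table held 20 other genes, of which 7 had no count, and 10 were tested, all 10 with a negative log2 fold change (median -1.47). edgeR called 0 of them, and limma-voom 0, while 3 were lower at an unadjusted p under 0.05 and DESeq2 called 3 lower. The 3 genes lying between Lce3 members were among those with no count. On the side of Lce3a stood Lce1g (-1.11), Lce1h (-1.13), Lce1i (-0.80), Lce1j (-0.81), Kprp (-1.82, a keratinocyte proline-rich protein), Lce1l (-2.54) and 2310050C09Rik (-2.62). Lce1k, untested, had 11 and 6 reads with DMSO and 3 and 0 with NEDD8i. On the side of Lce3f stood Crct1 (-0.20), Lce1m (-4.42) and Crnn (-1.90, cornulin). The Lce1 genes here are also among the 15 other Lce genes, and Kprp, Crct1 and Crnn are among the envelope genes below. The counts for these sets therefore overlap and are not separate results.

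Crct1, the gene next to Lce3f, had 1267 and 253 reads with DMSO and 767 and 853 with NEDD8i, so that the NEDD8i libraries lay between the DMSO libraries. Without DMSO replicate 1 its log2 fold change was 1.10, so no direction can be given for it. Crnn had 81 and 0 reads with DMSO and 1 and 25 with NEDD8i, and its sign turned in the same fit, at 6.54. The other tested neighbours stayed negative without either DMSO library. They ran from -0.41 (Lce1i) to -1.96 (Lce1m) without DMSO replicate 1, and from -0.01 (Lce1j) to -5.26 (Lce1m) without DMSO replicate 2. With the replicate number as a block Kprp, Lce1l and 2310050C09Rik were called lower (edgeR adjusted p = 0.0324, 0.0436 and 0.0253).

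**Figure D4:**
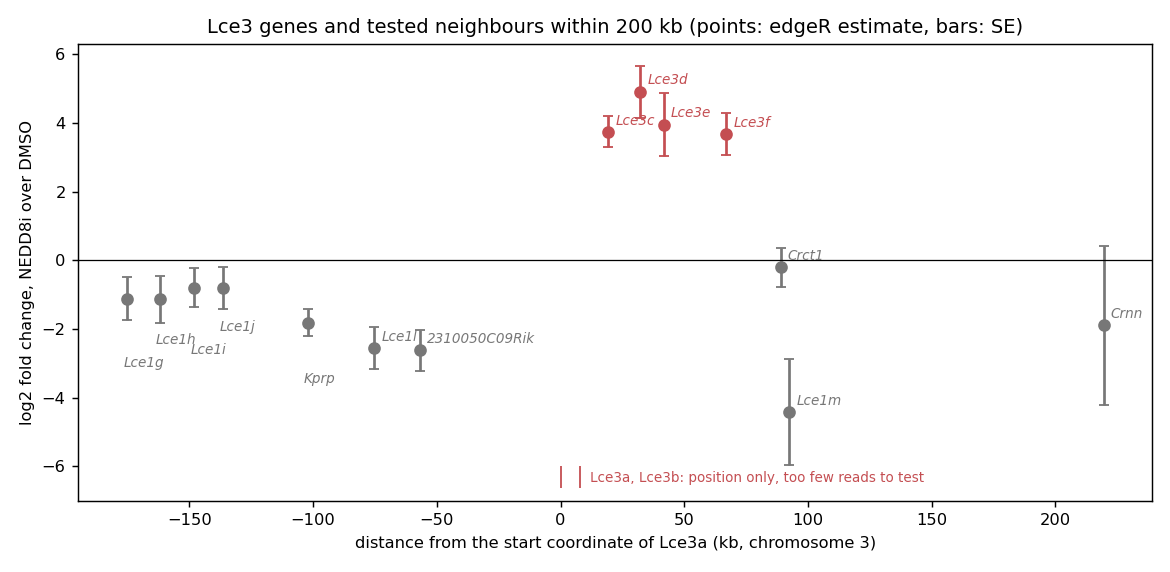
Log2 fold change of NEDD8i over DMSO (points, with SE bars) against the distance from the Lce3a start on chromosome 3, for tested Lce3 genes in red and tested neighbours within 200 kb in grey. The 4 tested Lce3 genes stand between 3.69 and 4.91, and the neighbours on both sides lie below 0, nearest to 0 for Crct1 at -0.20.

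Among other proteins of the cornified envelope, loricrin (Lor) and filaggrin 2 (Flg2), which fill and bind the envelope of normal epidermis, were lower after NEDD8i. Of 17 tested envelope genes, a list that also holds the keratins Krt1 and Krt10 and Cdsn, 0 were higher and 2 lower in edgeR's test. The median log2 fold change was -0.45, with 4 positive and 13 negative. At an unadjusted p under 0.05 in that test there were 5 lower and 0 higher. DESeq2 called 5 lower and 0 higher, and limma-voom 3 lower and 0 higher. Flg2 stood at 125.3 ± 49.0 CPM with DMSO and 9.68 ± 4.42 CPM with NEDD8i, and Lor at 224.6 ± 161 CPM and 27.1 ± 3.50 CPM (mean ± SD, n = 2 each). Their log2 fold changes were -3.69 and -3.05 (edgeR adjusted p = 0.0128 and 0.0377). Lor did not pass without NEDD8i replicate 1, without NEDD8i replicate 2, with the replicate block, with limma-voom, with library sizes without TMM or without the robust option. Envelope genes called were 7 lower and 1 higher without DMSO replicate 1, 7 lower and 2 higher without DMSO replicate 2, and 1 lower without either NEDD8i library.

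The enzymes that cross-link and process envelope proteins gave no call. Of 12 tested, 0 passed in edgeR's test, 7 were positive and 5 negative, and the median was 0.28. At an unadjusted p under 0.05 there were 2 higher and 4 lower, DESeq2 called 1 lower and limma-voom 0. Klk7, a protease of corneocyte shedding, had a log2 fold change of 0.35 (SE 0.32) and St14, which encodes matriptase, one of 0.58 (SE 0.44). The enzyme median was 0.70 without DMSO replicate 1 and -0.05 without DMSO replicate 2.

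Most of the tested Sprr genes of the same complex were higher after NEDD8i. Of 16 Sprr genes 3 had no count in any library and 8 were tested, of which 7 were higher and 0 lower. Every tested Sprr2 gene needed its NEDD8i counts to pass the filter on low counts, so low NEDD8i counts would have left it untested. The number called higher is thus partly built into the filter. The median log2 fold change was 5.22, or 4.97 with the DMSO level of Sprr2i set at the floor of 3 counts. For Sprr1b the log2 fold change was 3.53, which did not pass (edgeR adjusted p = 0.129, SE 0.81). Sprr2i had no DMSO count, and its NEDD8i level was 25.2 times the same floor over the group, with counting error of its NEDD8i reads left out. The pooled ratio was 277 for Sprr2g (95% counting interval 76.5 to 2295) and 94.0 for Sprr2e (16.6 to 3743), on 2 and 1 DMSO reads. Sprr2d was higher by 5.40 on the log2 scale (edgeR adjusted p = 0.0039, SE 0.48). The Sprr median ran from 5.12 to 5.81 when single libraries were left out. Sprr2e was lost without NEDD8i replicate 1 and Sprr2i without NEDD8i replicate 2. Both were lost with limma-voom, and Sprr2i without the robust option. Sprr2 genes are close copies of each other, so single values are less certain than those of the group. Sprr2a1 and Sprr2a2, both without a count, overlap in their annotated spans, and whether their reads could be counted was not tested.

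Genes that inflamed keratinocytes are known to express were higher in part. Of 12 tested 4 were higher and 0 lower, with 11 positive and a median of 2.83. Those called were Slpi, a protease inhibitor with antimicrobial activity, Defb14, a beta-defensin, Krt6a, a keratin of wounded epidermis, and S100a8, a calgranulin subunit. Slpi had no DMSO count, and its NEDD8i level was 43.3 times the group floor. Slpi and Defb14 passed the filter on low counts only through their NEDD8i counts. The log2 fold changes were 4.24 for Defb14, 3.38 for Krt6a and 2.28 for S100a8 (edgeR adjusted p = 0.0403, 0.0143 and 0.0347). Defb14 and S100a8 did not pass without NEDD8i replicate 1, where 2 genes of the list were higher, nor with library sizes without TMM or without the robust option, and Defb14 and Slpi did not pass with limma-voom. Leaving out DMSO replicate 1 gave 10 higher and 1 lower, and leaving out DMSO replicate 2 gave 7 higher. The neutrophil markers Ly6g, Camp, Ltf and Ngp had no count in any library. The summed list of 8 neutrophil markers went from 0.00439% and 0.00498% of reads outside ribosomal RNA in DMSO to 0.0281% and 0.0209% after NEDD8i. It held 124 and 114 reads with DMSO and 1026 and 705 with NEDD8i. Most were on S100a8 (110 and 49, then 558 and 424) and S100a9 (3 and 31, then 388 and 237). Both genes are also on the inflamed keratinocyte list, so this rise is largely the same reads counted again.

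Of 17 listed cytokine ligands that act on keratinocytes or are made by them, 6 had enough reads to be tested and 5 had no count. Il33, a cytokine named below among the genes most like the Lce3 sum, was not on this list. It was called higher, at 3.96 on the log2 scale (edgeR adjusted p = 0.0057, SE 0.40), and the ligand counts and median leave it out. Il17a, Il17c, Il20, Il22 and Ifng, named after their values were seen, had no count in any library, which allows up to 0.239 CPM over the DMSO group and 0.183 CPM over the NEDD8i group. Those limits hold only if reads of these genes could be counted at all, which was not tested. Il24, an IL-20 family cytokine made by keratinocytes, was the 1 ligand of 6 tested that was called, with 0 and 2 reads with DMSO and 91 and 122 with NEDD8i, a pooled ratio of 81.4 (95% counting interval 22.3 to 677, edgeR adjusted p = 0.0157). The ligands that follow did not pass and were also named after their values were seen. Il36g had 54 and 60 reads with DMSO and 93 and 119 with NEDD8i, a log2 fold change of 0.48. That of Il36a was -0.64 and that of Il36b -0.78. Il1b had 12 and 9 reads with DMSO and 137 and 17 with NEDD8i, a log2 fold change of 2.49 (edgeR adjusted p = 0.247, SE 0.94), and its NEDD8i reads were mostly in replicate 1. Il24 did not pass with limma-voom, and it was tested only because of its NEDD8i counts. The ligand median was 0.54, and ran from 0.45 to 0.67 when single libraries were left out. Of 12 tested receptors edgeR called 0 and limma-voom 0, with 3 higher and 3 lower at an unadjusted p under 0.05 and 1 higher and 2 lower in DESeq2. Their median was 0.05, and -0.13 with library sizes without TMM. Tnfrsf1a (0.92, SE 0.29) and Il1rl2, the IL-36 receptor (1.35, SE 0.31), were the most abundant. The receptor median was -0.27 without DMSO replicate 1 and 0.33 without DMSO replicate 2.

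Among 23 transcription factors of keratinocyte differentiation, all tested, 2 were higher and 0 lower, with 17 positive and a median of 0.28. Ehf, an ETS family factor, rose from 18.8 ± 5.50 to 122.3 ± 33.2 CPM (mean ± SD, n = 2 libraries per group), 2.70 on the log2 scale (edgeR adjusted p = 0.0162, SE 0.35). Fosl1, an AP-1 subunit, rose from 6.49 ± 2.29 to 41.0 ± 0.701 CPM, 2.64 on the log2 scale (edgeR adjusted p = 0.0162, SE 0.36). The median of the factors was 0.52 without DMSO replicate 1 and 0.32 without DMSO replicate 2. Fosl1 did not pass with library sizes without TMM.

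**Figure D5:**
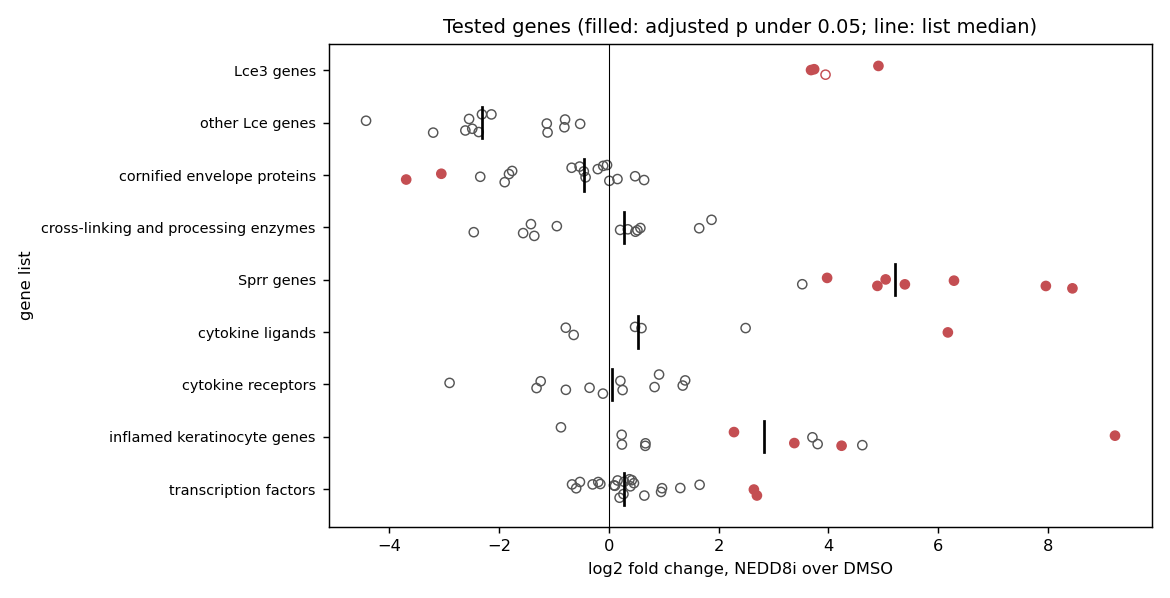
Log2 fold change of NEDD8i over DMSO for each tested gene of the Lce3 group and of 8 gene lists, with filled points for an adjusted p under 0.05 and a line at the median of each of the 8 lists. The other Lce genes all lie below 0 with a median of -2.31, and the Sprr genes all lie above 0 with a median of 5.22.

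The genes whose pattern over the 4 libraries was most like the Lce3 sum came from other families and other chromosomes as well as from the same complex. Likeness was the root mean square difference between log2 CPM profiles, each centred on its own mean, over 7973 genes with a mean log2 CPM of at least 2, where the median difference was 1.98. The closest was Pla2g4e, a cytosolic phospholipase A2, at 0.22, with 13 and 24 reads with DMSO and 239 and 401 with NEDD8i. Il33, an alarmin cytokine, followed at 0.25, Serpinb2, a plasminogen activator inhibitor, at 0.29, Sprr1a at 0.31 and Krt6a at 0.32. Among the members themselves Lce3c was at 0.22 from the sum it belongs to, Lce3f at 0.45, Lce3e at 0.48, Lce3d at 1.01, Lce3b at 1.19 and Lce3a at 1.47. With 4 libraries in 2 groups, such likeness mostly reflects the size of the difference between groups.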

How the data were processed

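The deposited values are the authors' raw counts of reads for each gene, with exon coordinates, in the column layout of featureCounts per the file headers. STAR, featureCounts and DESeq2, without versions, and the builds GRCm38 and GRCm39 are named in the submitters' processing notes. Of 52029 genes matched to GENCODE M21 (GRCm38) 2.7% began at the same base, so coordinates are taken to be GRCm39. Strand use and multi-mapping settings are not given in the sources used here. All 4 columns were matched by name to the labels.

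Counts were tested in R 4.3.3 with edgeR 4.0.16: TMM factors (0.913 to 1.18), filterByExpr (minimum count 10, minimum total 15), the robust quasi-likelihood test on the group alone and Benjamini-Hochberg adjustment over 11388 genes at 0.05. CPM uses TMM-scaled library sizes, and log2 CPM a prior count of 2. No library was a duplicate of another (chi-square per degree of freedom 24.1 to 68.5). The DMSO libraries correlated at 0.870 in log2 CPM of tested genes, and the NEDD8i libraries at 0.943. Across the groups the values were 0.843 and 0.866 for DMSO replicate 1 and 0.886 and 0.887 for DMSO replicate 2. The DMSO libraries were thus no more alike than DMSO replicate 2 was to NEDD8i skin. The steps were run on simulated counts drawn from the fitted trend of the spread, with no library standing apart. Such a run checks the steps only and does not bear on the calls made here. Promoters were those of RefSeq, GRCm38.p6, and transcripts those of GENCODE M21, aligned with Biopython 1.88.

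Members and gene lists were chosen with earlier results of these data known. All 6 members were named, from each list up to 4 genes past the threshold with the largest change or else the 2 most abundant, neighbours with at least 10 counts, and the 5 genes most like the Lce3 sum. Alternatives were DESeq2 1.42.0, limma-voom 3.58.1, other scalings and filters, a replicate block and single libraries left out.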

Additional observations from a re-analysis of the deposited data

How the results depend on the processing

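All fold changes of Lce3 genes stayed positive under every alternative run. This could hardly be otherwise, since every member had both NEDD8i libraries above both DMSO libraries, and nothing is read from it. Leaving out 1 library gave a log2 fold change of 3.28 to 4.34 for Lce3c, 4.09 to 9.48 for Lce3d, 2.84 to 8.71 for Lce3e, 2.83 to 4.30 for Lce3f and 3.55 to 4.48 for the sum, and the highest values of Lce3d and Lce3e rest on a DMSO library without reads. The log2 ratio of the Lce3 share outside ribosomal RNA was 3.89, and 3.52 to 4.39 with a library left out. Members called were 3, 1 with limma-voom, with library sizes without TMM or without the robust option, and 1 to 4 with a library left out. Genes called were 89 (1878 at an unadjusted p under 0.05), 414 with DESeq2, 47 with library sizes without TMM, 703 with no filter, 48 without the robust option, and 44 to 1358 with a library left out. Listed genes called higher were 14, 9 with limma-voom, 23 with no filter and 11 to 34 with a library left out. Those called lower were 2, 13 with DESeq2, 1 with library sizes without TMM, 17 with no filter, 1 without the robust option and 1 to 22 with a library left out. Neighbours called were 0, 3 with DESeq2, 3 with no filter and 0 to 5 with a library left out. Library sizes without TMM moved the median log2 fold change of all genes from -0.00 to -0.22.

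Replicate numbers are shared between the groups, but nothing says that they pair samples, and differences between replicates 1 and 2 correlated at -0.13 across genes between the groups. With the replicate block 289 genes were called, 3 Lce3 members, 7 listed genes lower and 3 neighbours. The crossed pairing, added after seeing the data, called 493 genes and 4 members. With counts of 0 to 13 per member and library in DMSO, depth limits the size of the folds.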
